A study of Drosophila melanogaster with 2 samples.

Results

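The 36 genes described here run the cell cycle and copy DNA in Drosophila melanogaster, and what was measured is how strongly the tagged transcription factor rib was recovered at their transcription start sites (TSSs). They were taken by name from a list, all 36 symbols were found, and they make up 36 of 13968 protein-coding genes on the chromosome arms. Of these, 16 act in DNA replication and 20 are cyclins, kinases, regulators of entry into a phase, or mitotic genes. The data are from chromatin immunoprecipitation followed by sequencing (ChIP-seq) on whole embryos aged 0 to 24 h from a strain with an insertion that makes a fusion of rib with the green fluorescent protein eGFP. The labels' description gives an antibody to GFP, while their antibody field names rib. There was 1 group of 2 biological replicates, with no treated or control group, so each value of these genes is set beside the same value over all protein-coding genes. The embryos are a mixture of all tissues and of many stages, so a peak may come from few or many cells. The deposited data are peak lists without read counts, and depth is unknown.

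Before S phase the origin recognition complex and the loading factor dup (Cdt1) place the ring-shaped MCM helicase on origins. Cyclin E with Cdk2 then starts replication, primase and the clamp PCNA serve the forks, and ribonucleotide reductase supplies deoxynucleotides. Cyclins A and B with Cdk1 drive mitosis. E2f1 with its partner Dp switches on genes of S phase, and Rbf, the fly retinoblastoma protein, holds it back. In the fly embryo the early divisions run on maternal products, and later ones depend on transcription of stg, which encodes the Cdc25 phosphatase. The gene rib (ribbon) encodes a nuclear BTB protein known for shaping tracheae and salivary glands.

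Of the 36 genes, 9 had a peak summit within 500 bp of a TSS and are called bound here, which is 25% (95% exact Clopper-Pearson interval 12.1% to 42.2%), while 18.2% of all protein-coding genes were bound in the same list of 4606 peaks past the threshold on the irreproducible discovery rate (IDR). The bound replication genes were Mcm2, dpa, dup, PCNA, Prim1 and RnrS, 6 of 16 or 37.5% (interval 15.2% to 64.6%). The bound genes among the cyclin and mitotic set were CycE, Dp and dap, 3 of 20 or 15% (interval 3.21% to 37.9%). The intervals overlap, cover the counting of genes only, and each holds 18.2%. No test over samples can be made with 1 group, and none was made over genes. The signal of each peak is the authors' value from the peak caller, without replicate error in the joint list, and its unit is comparable only within a list.

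**Figure D1:**
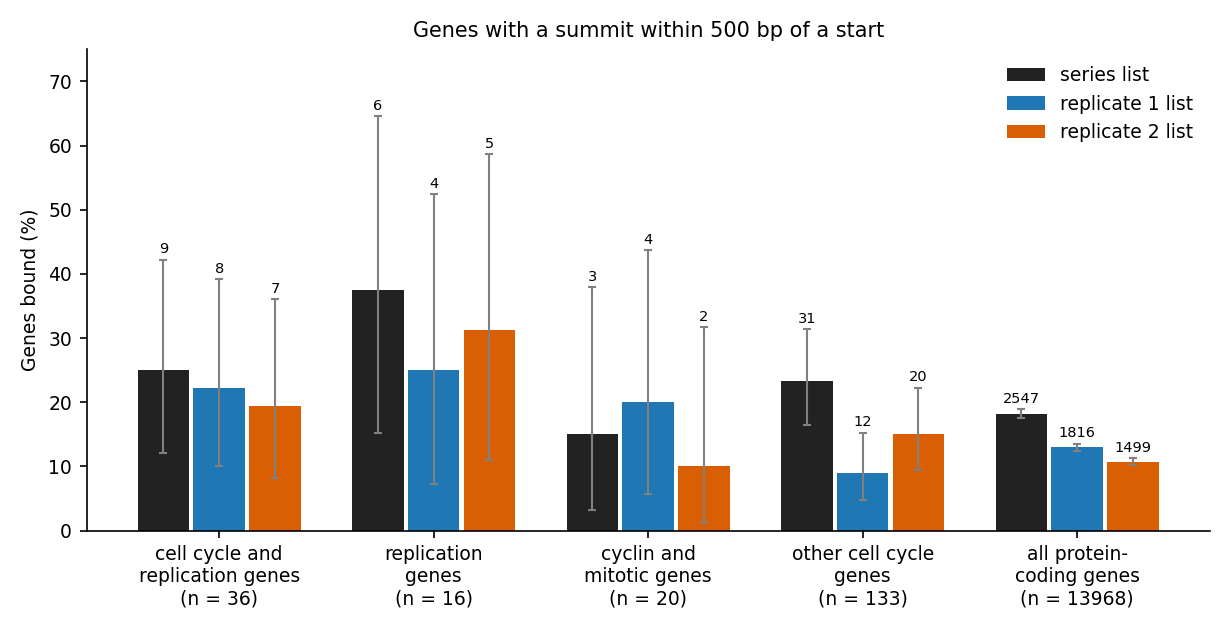
Percentage of genes with a summit within 500 bp of a start (y axis) for the 36 cell cycle and replication genes, their replication and cyclin and mitotic subsets, 133 other cell cycle genes and all 13968 protein-coding genes, in the list of the series and in that of each replicate. Bars show the share, whiskers the 95% exact interval and the numbers on top the count of bound genes. In the series list the 36 genes stand at 25% and all genes at 18.2%, which is inside the whisker of the 36 genes.

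The start regions below show what the peaks lie on, at bound genes for which sequence is printed and, for contrast, at a pair of genes that were not bound. Each runs 5′ to 3′ on the coding strand from 250 bases before a start to 30 bases after it, from the RefSeq copy of the Release 6 assembly (dm6), in lower case with capitals on matches to the searched motifs. Those motifs, looked for on both strands, were TATCGATA (the DNA replication-related element), TTTNGCGC (a form of the E2F site), GGTCACAC (the core of promoter motif 1), CAGCTG (an E-box), GAGAGAG (the GAGA repeat) and TATAAA (the TATA box). For Mcm2 (chr3R:8264720-8264999, plus strand) the summit lies 81 bases before the start, beside a TATA box match 70 bases before it. For Prim1 the stretch shown is that before the start of CG7083 (chr3L:8340535-8340814, plus strand), inside the first intron of Prim1, where the summit lies 52 bases before the start of CG7083 and 10 bases before an E-box match begins. For CycE (chr2L:15748121-15748400, minus strand) the summit lies 63 bases after the start, beyond the printed stretch, and a GAGA repeat stands on either side of the start. Mcm5 (chr3R:10788274-10788553, plus strand) holds no match and was not bound. CycA (chr3L:11833549-11833828, minus strand), not bound either, holds the replication-related element from 11 bases before the start and an E2F site match from 102 bases before it.
Mcm2: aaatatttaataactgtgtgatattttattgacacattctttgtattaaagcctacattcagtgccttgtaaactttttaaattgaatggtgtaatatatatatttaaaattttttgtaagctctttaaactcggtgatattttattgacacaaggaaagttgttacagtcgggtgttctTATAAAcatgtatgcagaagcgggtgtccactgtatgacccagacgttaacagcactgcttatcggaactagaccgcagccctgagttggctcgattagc
Prim1: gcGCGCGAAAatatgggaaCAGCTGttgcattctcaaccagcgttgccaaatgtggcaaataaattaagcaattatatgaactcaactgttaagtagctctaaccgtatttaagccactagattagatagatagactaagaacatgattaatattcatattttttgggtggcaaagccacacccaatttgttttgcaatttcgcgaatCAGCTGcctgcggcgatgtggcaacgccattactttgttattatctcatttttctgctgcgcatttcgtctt
CycE: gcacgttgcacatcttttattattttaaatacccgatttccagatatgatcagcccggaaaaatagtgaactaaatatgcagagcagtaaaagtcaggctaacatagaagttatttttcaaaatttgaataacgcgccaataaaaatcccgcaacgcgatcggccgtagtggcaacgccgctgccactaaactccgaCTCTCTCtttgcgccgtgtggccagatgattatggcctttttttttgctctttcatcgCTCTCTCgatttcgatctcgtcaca
Mcm5: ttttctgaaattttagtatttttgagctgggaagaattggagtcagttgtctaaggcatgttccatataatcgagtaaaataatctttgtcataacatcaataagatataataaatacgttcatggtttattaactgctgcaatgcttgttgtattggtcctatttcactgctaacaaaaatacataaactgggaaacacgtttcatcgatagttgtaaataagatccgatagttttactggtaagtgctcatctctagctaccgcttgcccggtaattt
CycA: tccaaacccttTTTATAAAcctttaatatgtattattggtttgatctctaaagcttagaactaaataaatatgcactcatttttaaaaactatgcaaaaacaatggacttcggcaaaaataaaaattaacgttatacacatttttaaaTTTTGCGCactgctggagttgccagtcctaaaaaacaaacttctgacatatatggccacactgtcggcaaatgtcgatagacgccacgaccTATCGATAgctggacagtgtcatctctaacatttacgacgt

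Among the helicase genes, 2 of 6 were bound. The gene dpa, which encodes Mcm4, lies on 2R from 7496702 to 7500145 (dm6), and the summit of its peak is at 7499976, in its 5′ UTR. Its signal was 157 in the joint list, 72.5 in replicate 1 and 76.9 in replicate 2, and both replicates had a peak past their own threshold. The summit is 99 bp upstream of the nearest annotated start of dpa, a downstream alternative, and 169 bp inside the gene from its main start. The didum gene, which encodes a myosin V, starts on the opposite strand 270 bp away from that alternative start, with the summit 171 bp upstream of it.

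Mcm2 lies on 3R from 8264970 to 8267924. Its peak had a signal of 65.2 in the joint list, 33.3 in replicate 1 and 47.6 in replicate 2, and only replicate 2 had a peak past its threshold. That places it at rank 3989 of 4606, and the conservative list of 3959 peaks does not contain it. A second summit with a signal of 25.2 lies 122 bp downstream of the start. The same peak lies 438 bp upstream of RPA1, which encodes the large subunit of replication protein A, the coat of unwound DNA, and faces Mcm2 from 519 bp away. Both genes of this divergent pair act at the fork, and the peak lies within 500 bp of both starts.

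The other helicase genes were not bound. Mcm5 came closest, with a signal of 65.2 in the ranked list, 34.1 in replicate 1 and 31.3 in replicate 2. That is the level of Mcm2, but its IDR score was 788 where the thresholded list starts at 830. Mcm6 had 37.1, Mcm7 20.2 and Mcm3 19.4 in the ranked list of the series. Neither replicate listed any region within 500 bp of Mcm3, although a summit of 211.7 lay 1083 bp upstream of its start, 76 bp from the start of Rnp4F. The nearest thresholded summit to Mcm5 was 14742 bp away and that to Mcm7 21041 bp.

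Of the genes for origin recognition and loading, dup alone was bound. The dup gene (2R 15376619 to 15380988) encodes the fly Cdt1, and its summit at 15380705 lies in the 5′ UTR. Its signal was 129 in the joint list, 52.5 in replicate 1 and 81.6 in replicate 2, past the threshold in each. The summit is 91 bp upstream of an alternative start of dup and 19 bp upstream of SRPK, which encodes a kinase of splicing factors and runs the opposite way from 110 bp off. The peak is therefore nearer to SRPK than to dup. Another summit with a signal of 7.85 lies 84 bp downstream of the main start of dup. None of the 5 origin recognition genes had a summit within 500 bp. Their signals in the ranked list were 52.1 for Orc2, 50.9 for Orc1, 35.1 for Orc5, 32.0 for Orc4 and 30.5 for Orc6. The strongest peak within 5 kb of any of them, with 859, was that of CenG1A, beyond the end of Orc5.

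Of the 4 genes that serve the fork or make its nucleotides, 3 were bound. The peak assigned to Prim1 (3L 8340314 to 8344404), the small subunit of primase, was the strongest of the replication set. Its signal was 188 in the joint list, 126 in replicate 1 and 67.3 in replicate 2, past the threshold in each. Its summit at 8340733 is 419 bp downstream of the Prim1 start, the farthest inside the limit of 500 bp among the bound genes, and 52 bp upstream of CG7083, which starts within the first intron. With each summit given to the nearest start alone, Prim1 was the gene that dropped out of the 9, and dup kept its call only through its summit of 7.85, since its main peak of 129 went to SRPK.

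RnrS (2R 11983145 to 11985393), the small subunit of ribonucleotide reductase, had a signal of 151 in the joint list, 91.4 in replicate 1 and 62.5 in replicate 2. Its summit lay 228 bp upstream of the start and 387 bp upstream of CG34231 on the opposite strand, and both replicates passed. The gene of the large subunit, RnrL, had 47.7 in the ranked list, 25.8 in replicate 1 and 18.8 in replicate 2, and was not bound. The genes of this enzyme thus fell on either side of the threshold, with RnrS higher in both replicates.

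PCNA (2R 20261754 to 20262883), the sliding clamp, had a signal of 75.6 in the joint list, 49.2 in replicate 1 and 36.6 in replicate 2. Neither replicate had a peak past its own threshold, so this call rests on the joint list and on the conservative one. The summit lies in a coding exon, 333 bp downstream of the nearest start. The replication-related element, which was first described in promoters such as that of PCNA, has its match 27 bases before the main start, outside the 100 bp around the summit.

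**Figure D2:**
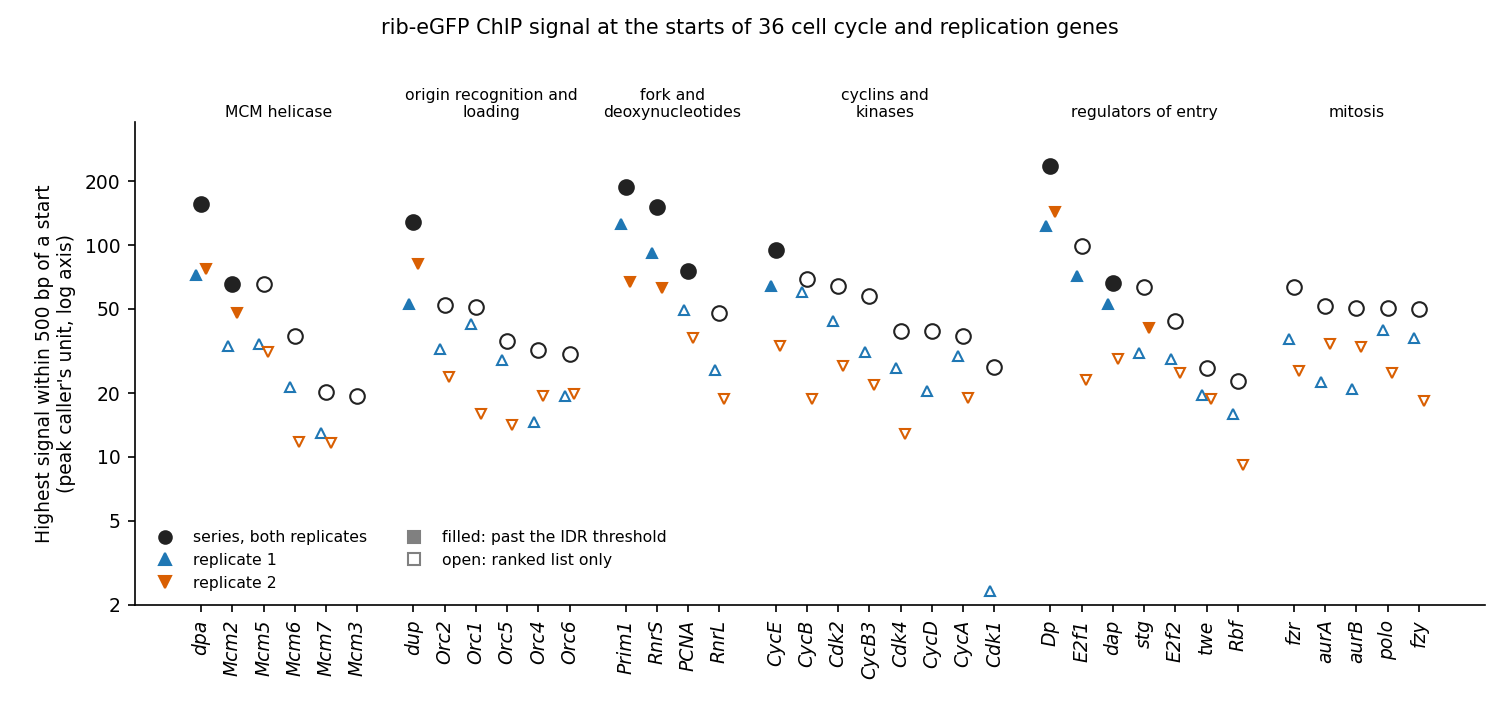
Highest signal within 500 bp of a start (y axis, peak caller's unit, log axis) for each of the 36 genes by role, in the ranked lists of the series (circles), replicate 1 (triangles up) and replicate 2 (triangles down). Filled symbols are genes bound in the thresholded list of the series or of that replicate, so CycB at 69.1 is open above the filled Mcm2 at 65.2. E2f1 at 98.8 is open too, since its region reaches the score of the thresholded list but is not in it. A missing triangle means that the replicate listed no region there.

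Among cyclins and their kinases, CycE alone of 8 was bound. CycE (2L 15727581 to 15748150) had a signal of 94.6 in the joint list, 64.3 in replicate 1 and 33.5 in replicate 2, and only replicate 1 passed. The summit at 15748087 is in the 5′ UTR, 63 bp downstream of the most upstream of its 3 starts. A further summit of 83.3, found in neither replicate alone, lay 1498 bp upstream of that start. The start of ND-B17 was nearer to it, at 1430 bp. CycB, a cyclin of mitosis, had 69.1 in the ranked list, with 60.1 in replicate 1 against 18.8 in replicate 2. Its signal was above that of Mcm2, but its IDR score was 211 and it was not called. A summit of 365, found in both replicates, lay 3343 bp from the nearest CycB start, beyond the 3′ end of the gene, and that start is the closest of any gene. The mitotic cyclin CycB3 had 57.8 and CycA 37.1 in the ranked list, and CycD, the cyclin of Cdk4, had 39.1.

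Cdk4 and Cdk1, the kinase genes for the G1 phase and for mitosis, were the genes whose nearest summit lay least far beyond the limit. A summit of 123, present in both replicates, lay 609 bp upstream of a start of Cdk4, which would be counted at 1000 bp. Cdk1 had a summit of 72.2 in a coding exon 912 bp downstream of its start, found in neither replicate alone. Within 500 bp, the ranked list gave 39.4 for Cdk4 and 26.5 for Cdk1. Cdk2 had 64.2 in the ranked list with a score of 741, and its nearest thresholded summit was 86363 bp away, the farthest of the 36 genes.

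Of the 7 regulators of entry, Dp and dap were bound. Dp (2R 13222433 to 13228202), the partner of E2f1, had the strongest peak of all 36 genes, with 237 in the joint list, 123 in replicate 1 and 143 in replicate 2. It ranked 291 of 4606, above 90.5% of bound genes. The gene also had the most summits near starts, 3 in all. The highest is in an intron, 226 bp upstream of the second start. The next, with 130, lies 348 bp downstream of that start, and the third, with 108, lies 55 bp upstream of the main start and 40 bp upstream of Fsn, an F-box gene on the opposite strand. The strongest peak of Dp thus lies upstream of an internal start without reaching it, and that at the main start is weaker and shared. With a window of 200 bp Dp kept its call through the peak of 108 at the main start, below dpa with 157.

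The gene dap (2R 9712321 to 9716256), the inhibitor of cyclin E with Cdk2, had a signal of 66.0 in the joint list, 52.9 in replicate 1 and 29.0 in replicate 2, and only replicate 1 passed. Its summit is 60 bp downstream of the start, in the 5′ UTR. Its score of 874 was the lowest among the 9 bound genes, and the other 8 stood at 1000.

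E2f1 was not bound by the rule in the joint list, though it was in that of replicate 1, and it had peaks inside the gene. In its introns, 3 thresholded summits of 119, 68.1 and 123 lay 4793, 2727 and 1288 bp downstream of a start, each overlapping a peak of replicate 1 and none of replicate 2. The cell cycle phosphatase gene stg had 63.3 in the ranked list, 31.1 in replicate 1 and 40.5 in replicate 2, and replicate 2 alone called it. Its score in the joint list was 723. A summit of 98.8 lay 3659 bp from its nearest start, past the 3′ end. E2f2, which represses genes outside S phase, had 44.0, twe, the Cdc25 of the germline, 26.2 and Rbf 22.8 in the ranked list.

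None of the 5 mitotic genes was bound, and a count of 0 of 5 allows a share of up to 52.2%. In the ranked list fzr and fzy, the activators of the anaphase-promoting complex, had 63.3 and 49.7. The kinase genes aurA, aurB and polo had 51.7, 50.7 and 50.5. The values thus lie close together, below the lowest bound gene, and the nearest thresholded summits were between 1392 bp (aurB) and 11756 bp (aurA) away.

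Of the 9 bound genes, 5 were called in both replicates: dpa, dup, Prim1, RnrS and Dp. Of the 36 genes, 8 (22.2%) were bound in the list of replicate 1, with 13.0% of all genes, and 7 (19.4%) in that of replicate 2, with 10.7% of all genes. Bound in both were 5 (13.9%), with 8.00% of all genes. Replication genes made up 4 of the 8 and 5 of the 7. The median signal at the 9 bound genes was 64.3 in replicate 1 and 62.5 in replicate 2, beside 63.6 and 47.4 at all bound genes. Relative to the other replicate, dup and Mcm2 leaned most to replicate 2, with log2 ratios of replicate 1 over replicate 2 of −0.64 and −0.52, where all bound genes had a median of 0.39. CycE, Prim1 and dap leaned to replicate 1, with 0.94, 0.90 and 0.86.

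In the joint list the 9 had a median signal of 129 and a range of 65.2 to 237, where all 2547 bound genes had a median of 106 with quartiles at 83.3 and 155. Replication genes had a median of 140 over 6 and the cyclin and mitotic set 94.6 over 3. The peaks of Prim1 and dup, counted here, lie nearer to a start of CG7083 and of SRPK. With each summit given to the nearest start alone, 8 genes stayed bound with a median of 85.1. No median over all genes is given here for that rule. Signal still decided no call by itself, since the regions nearest to the threshold overlapped in strength. At the 27 genes not bound the median in the ranked list was 47.7, ranging from 19.4 to 98.8. All 27 had some ranked region within 500 bp of a start. Over all 11421 genes not bound, these 27 included, 8048 had one, with a median of 36.5.

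Peaks were often shared with a neighbour. For 5 of the 9 (55.6%), the highest peak lay within 500 bp of a start of another protein-coding gene too, while this held for 45.7% of all bound genes. Those partners were didum, SRPK, CG7083, CG34231 and RPA1. Of the 36 genes, 18 (50%) had a start that faced away from one of another gene within 1000 bp, beside 36.2% of all genes. Of these 18 genes 5 were bound and of the other 18 genes 4, while over all genes 28.7% of divergent and 12.3% of other genes were bound. In replication, 4 of 9 divergent genes were bound, and in the cyclin and mitotic set 1 of 9. By the rule, each annotated start of a gene can bring a call. Of the genes here with several starts 5 of 13 were bound, beside 32.5% of all such genes. With 1 start 4 of 23 were bound, beside 13.1%. Why these shares differ was not tested.

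**Figure D3:**
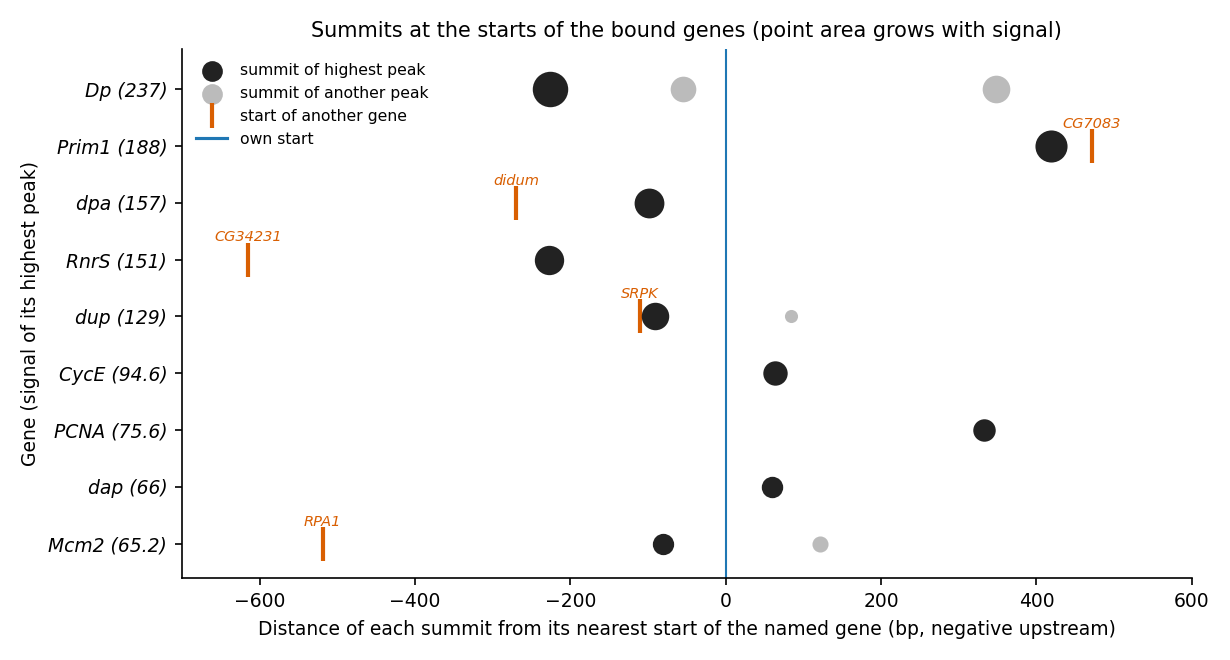
Position of every thresholded summit within 500 bp of the 9 bound genes (rows), as the distance in bp from the nearest start of that gene (x axis, negative upstream). Black points are the highest peak of each gene, grey points its other peaks, point area grows with signal, and orange ticks are starts of other genes that share the highest peak. Of the highest summits, those of Prim1 and PCNA, at 419 and 333 bp, lie farthest downstream, and Dp has a weaker one at 348 bp.

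Summits sat on both sides of starts. Of the 9 highest summits, 5 (55.6%) were upstream of the nearest start, beside 69.2% for all bound genes. Within 100 bp lay 5 (55.6%), beside 48.0%, and the median distance was 99 bp, beside 106 bp. Of the 40 thresholded summits in the 36 genes or within 5 kb of them but over 500 bp from their own starts, 26 lay within 500 bp of a start of another gene, and for 9 the closest start was that of the listed gene. Of the 27 genes not bound, 8 had no summit within 5 kb of the gene.

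Motif matches were counted around the main start of each gene. The E2F site form TTTNGCGC stood between 250 bases before and 50 after the main start in 9 of the 36 genes (25%), beside 5.78% of all 13967 promoters read. Its holders were Mcm6, Orc1, Orc4, Orc5, Orc6, RnrL, CycA, CycE and stg, of which CycE was bound, at another of its starts. Within 100 bp of the summits it stood at dpa and dup, 2 of the 9 bound genes (22.2%), beside 5.85% of all bound genes. Around the main start the form was thus found in 1 of 9 bound and 8 of 27 other cell cycle genes, a difference that was not tested. Of the bound genes, only Mcm2 and RnrS had their highest summit inside that window. For the other bound genes, the counts of every motif around the main start describe sequence that this summit does not lie in. Over all genes, 23.9% of those with the form and 17.9% of those without it were bound. The replication-related element stood at Orc2, Orc5, PCNA, CycA and Cdk2, 5 genes (13.9%, beside 8.94%), of which PCNA was bound, where 25.2% of all genes with it and 17.5% of those without it were bound. The core of promoter motif 1 stood at 7 genes (19.4%, beside 7.52%), none of them bound, where 23.6% of all genes with it and 17.8% of those without it were bound. E-boxes stood at 6 genes (16.7%, beside 17.9%) and GAGA repeats at 3 (8.33%, beside 6.19%). Matches to TATAAA, counted anywhere in the window, stood at 12 of 16 replication genes and 7 of 20 of the cyclin and mitotic set. All promoters had 45.3%. Among the replication genes the match closest to a start was that of Mcm7, 51 bases before it. At stg a match stood 26 bases before the start. A match is a description of these letters and not of a site in use. Matches to TATAAA on opposite strands can overlap, as can neighbouring matches to GAGAGAG.

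**Figure D4:**
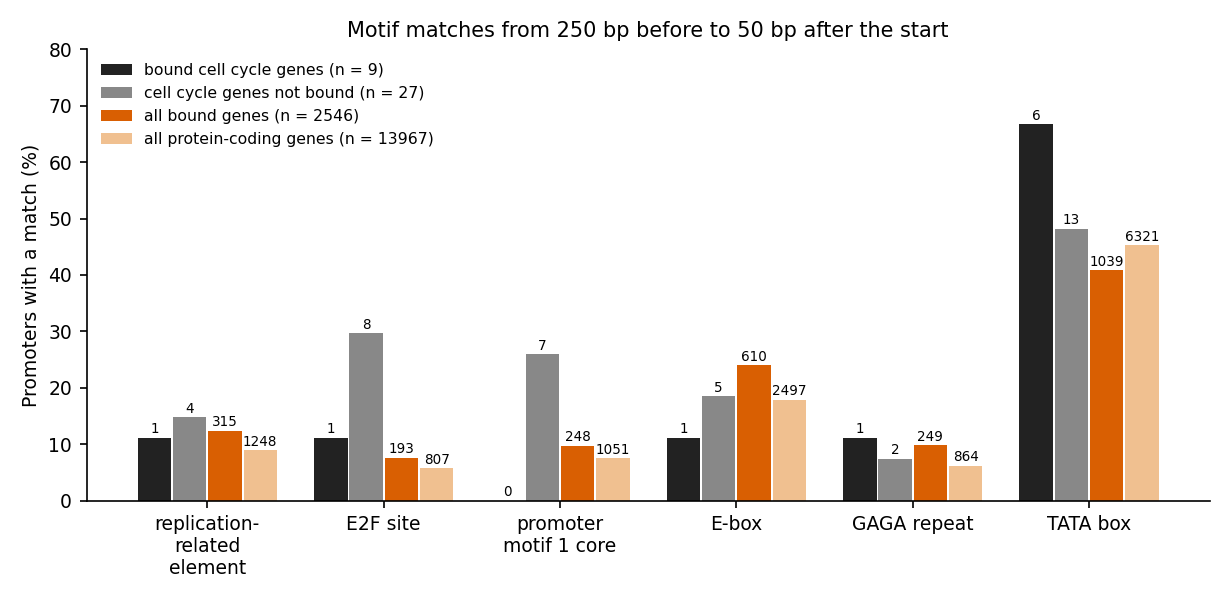
Percentage of promoters with a match to each of 6 motifs (y axis), in the window from 250 bases before to 50 after the main start, for bound cell cycle genes, cell cycle genes not bound, all bound genes and all protein-coding genes. Numbers above bars are genes. The E2F site stands at 1 of 9 bound and 8 of 27 other cell cycle genes. Among the bound cell cycle genes, only Mcm2 and RnrS have their highest summit inside this window.

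Of 144 other cell cycle and replication symbols, 133 were found in the annotation and 31 of those genes were bound (23.3%, interval 16.4% to 31.4%, beside 18.2% of all genes). By role these were 12 of 40 replication genes, 9 of 30 kinases and regulators and 10 of 63 mitotic genes. The strongest was Top1, topoisomerase I, with 228, 177 bp upstream of its start. Next came mei-41, the fly ATR checkpoint kinase, with 186, Spc25 of the kinetochore with 182, and Cdc16 of the anaphase-promoting complex with 179. The polymerase subunit gene PolD2 had 164, the condensin genes SMC2 and Cap-H2 had 155 and 148, and CG8142 had 136. The phosphatase subunit gene tws had 133 and PolE1, the catalytic subunit of polymerase epsilon, 127. All but Cap-H2 of these 10 were called in both replicates. The order against all genes was not the same in every list. In the list of replicate 1, 12 of the 133 (9.02%) were bound, beside 13.0% of all genes, and in that of replicate 2, 20 (15%), beside 10.7%. In both, 9 (6.77%) were bound, beside 8.00% of all genes, and 9 of the 31 were called in neither. The peaks of 21 of the 31 (67.7%) were shared with another gene, and Bub3 and Cap-D2 share 1 peak with each other.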

How the data were processed

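ChIP-seq was done on 2 biological replicates of whole embryos, with chromatin sonicated to 200 to 800 bp per the labels. The authors deposited ranked and IDR-thresholded peak lists on dm6 for each replicate and for the series, and a conservative list for the series. Signal, as deposited, is a value of the peak caller whose scaling is not stated. The score deposited by the authors is the IDR rescaled to whole numbers, with 830 the lowest in the thresholded list of the series. The aligner, the caller and the way reads were pooled for the joint list are not stated in the labels or headers, and control data were not used here. Levels of a gene in 2 lists are not on 1 scale. Positions were moved to count from 1.

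TSSs were all starts of protein-coding transcripts in Ensembl release 115 (BDGP6), sequence was from the Release 6 assembly, and the main start is that of the canonical transcript. Bound genes had at least 1 summit no farther than 500 bp from a start. Replicate signals are the highest within 500 bp in the ranked list of each replicate, and replicate peaks were shared at an overlap of at least 1 bp. Calculations used Python 3.11.15, numpy 2.4.6, scipy 1.17.1, pandas 2.3.3 and matplotlib 3.10.9. The assignment was tested on simulated peaks and recovered 111 of 111 within the window and called 0 outside it. Members, gene lists and motifs were chosen with earlier results of these data known. All members were accounted for, with the 10 strongest bound genes of the wider list and genes that share a peak. Alternatives were other lists, windows, thresholds and assignment rules. Intervals cover the counting of genes only.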

Additional observations from a re-analysis of the deposited data

Results flagged for a closer look

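E2f1 showed a signal in data outside the thresholded list. The ranked list of the series holds a region 54 bp downstream of an E2f1 start (3R 21632829 to 21633208) with a signal of 98.8 and a score of 1000, which reaches the threshold. It is 1 of 172 regions that reach the score but are not in the list of 4606 peaks, and the only one within 500 bp of a start of the 36 genes. Replicate 1 had 71.4 near the start of E2f1 and replicate 2 had 23.0. The accompanying text names 1 input file for the thresholded list that it does not name for the ranked list. Why the region is missing was not tested.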

How the results depend on the processing

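The number of bound genes ranged from 6 to 11 of 36 around the 9 reported, under the lists, windows and rules tried. It was 8 in the conservative list (without Mcm2), 10 with all ranked regions past the score (E2f1 added), 6 in the stronger 50% of peaks, 6 with a window of 200 bp, 11 with 1000 bp (Cdk1 and Cdk4 added), 8 with the nearest start only and 10 when any part of the peak touched the window. All genes moved with it, at 16.5%, 18.7%, 11.5%, 14.5%, 21.6%, 14.2% and 19.9% bound. With 1 replicate left out, the list of the other replicate was used, which repeats the counts given above. These were 7 for replicate 2 alone and 8 for replicate 1 alone, beside 10.7% and 13.0% of all genes. With 200 bp the replication genes bound were 3 in place of 6, since Prim1, RnrS and PCNA fell outside, and with 1000 bp the cyclin and mitotic genes bound were 5 in place of 3. The lists of replicate 2 and of replicate 1 alone gave 5 and 4 replication genes and 2 and 4 of the others. The wider list of 133 genes gave 18 in the stronger 50% of peaks, beside 11.5% of all genes, in place of 31. It gave 20 (15%) in the list of replicate 2, beside 10.7% of all genes, and 12 in that of replicate 1. In the list of replicate 1 its share, 9.02%, was below that of all genes, 13.0%, so the order of the 23.3% and 18.2% turned round there.

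The median signal of the bound genes, 129, was 140 in the conservative list, 114 with all ranked regions past the score and 154 in the stronger 50% of peaks. It was 101.2 at 200 bp, 123 at 1000 bp, 85.1 with the nearest start only and 126 by peak interval. In the lists of replicate 2 and of replicate 1 alone it was 67.3 and 68.4, in another scaling. Within 100 bp of the summit in place of the promoter, 0 of the 9 bound genes held the replication-related element in place of 1. An E-box stood at 2, an E2F site at 2 and a GAGA repeat at 2, in place of 1 each, and a TATA box at 1 in place of 6. Over all bound genes the shares within 100 bp of the summit were 7.03%, 14.6%, 5.85%, 6.95% and 26.1% in that order. The window around the summit is shorter than that around the start. Sharing judged by an overlap of 50% left the count of genes with peaks in both replicates at 5. No paired analysis was possible because there is 1 group. Unknown depth limits what can be said of genes without a peak: they were not called at this depth.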

Other observations

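The Mcm2 promoter, looked at after its peak was known, carries a word of 19 bases at 2 places, beginning 233 and 116 bases before the start on 3R: gtgatattttattgacaca. Only 63 of 13967 promoters (0.451%) held a repeated word as long, the median longest word was 8 bases, and Mcm2 was the only one of the 36 genes. The summit lies 81 bases before the start, past the end of the second copy.

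The bound genes were unevenly spread over the arms, an observation made after the values were seen and not tested. On 2R, 6 of 11 of the 36 genes were bound, and on the other arms 3 of 25. Over all genes the shares were 19.6% on 2R and 17.9% on the other arms. In the wider list the counts were 5 of 27 bound on 2R and 26 of 106 on the other arms.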
